A study of Homo sapiens with 4 samples.

Results

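Small nucleolar RNAs (snoRNAs) and small Cajal body RNAs were examined in ES2 cells, an established line of human ovarian cancer cells, given either vehicle or Liq (liquiritigenin, a plant flavanone used as an agonist of the estrogen receptor ERβ). The set was chosen by symbol and by measured counts: a row was included when its name began with SNORA, SNORD or SCARNA followed by a digit and its counts over the 4 samples summed to at least 1. Of 388 such rows among the 23228 genes of the count tables, 246 met the rule, namely 83 of 106 SNORA, 141 of 258 SNORD and 22 of 24 SCARNA rows. Total RNA was isolated from 2 vehicle and 2 Liq samples after 24 h. Liq was given at 100 μM, a dose that the sample labels do not give. Per the paper, libraries were made by Illumina TruSeq RNA Sample preparation. How RNA was selected is not described there, so how fully these short RNAs were captured is not known. All samples came from this cell line, with no other allele or agent named. Nothing in the labels says that the replicates were separate cultures, so p-values measure the spread between these samples, which may be technical. Each sample had between 34573053 and 48933893 reads counted on genes, and 3 counts corresponded to 0.0613 to 0.0868 CPM (counts scaled to library size). Among cell markers, KRT7, KRT18 and VIM had at least 5996 counts in every sample, and WT1 had at least 98. PAX8, a marker of ovarian carcinoma, was low at 12 to 49 counts. EPCAM had at most 3 counts. The leukocyte markers PTPRC and CD3E and the erythroid HBA1 had at most 1 count, and CD68, a marker of macrophages, had 2538 to 3331. Of 2 endothelial markers, CDH5 had 1712 to 2239 counts and PECAM1 had 2 to 10.

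SnoRNAs guide chemical modification of other RNAs by base pairing. Box C/D RNAs (SNORD) direct 2′-O-methylation by the enzyme FBL, box H/ACA RNAs (SNORA) direct pseudouridylation by DKC1, and SCARNA species carry 1 or both kinds of box and act on spliceosomal RNAs in Cajal bodies. Most human snoRNAs are cut from introns of host genes after splicing, and many hosts encode ribosomal proteins or nucleolar factors, while others, such as GAS5 and SNHG1, are non-coding. In bulk RNA, a change in RNA per cell and a change in the share of cells that hold it cannot be told apart.

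The sequences of the RNAs with the largest contrasts are given first, read on the RNA strand from GRCh37 at loci of the GENCODE annotation. SCARNA17, the RNA with the largest increase, lies at chr18:47340503-47340646 on the plus strand, within an exon of the non-coding gene SNHG22. It is shown because its count turns on what this locus includes. In RefSeq the SCARNA17 record is 421 bases long and shares an end with SNHG22, which was not analysed here as a gene of its own, so reads of the 2 RNAs cannot be told apart.
SCARNA17: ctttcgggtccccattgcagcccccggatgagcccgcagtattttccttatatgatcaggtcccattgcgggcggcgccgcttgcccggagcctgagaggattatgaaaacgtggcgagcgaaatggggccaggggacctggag
The SNORA5 RNAs are shown because SNORA5A was the other RNA called and its relatives lie in the same host. They sit in TBRG4 (chr7:45139699-45151646, minus strand), a gene for a mitochondrial RNA regulator, SNORA5A at chr7:45143948-45144081, SNORA5B at chr7:45145567-45145698 and SNORA5C at chr7:45144505-45144641. SNORA5B is contained in an exon of at least 1 annotated TBRG4 transcript, whereas SNORA5A and SNORA5C are not and were taken as intronic. Capitals mark the ACA box, 3 bases before the end.
SNORA5A: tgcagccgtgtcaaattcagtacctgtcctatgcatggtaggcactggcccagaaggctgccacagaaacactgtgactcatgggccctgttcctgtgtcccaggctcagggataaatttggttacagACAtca
SNORA5B: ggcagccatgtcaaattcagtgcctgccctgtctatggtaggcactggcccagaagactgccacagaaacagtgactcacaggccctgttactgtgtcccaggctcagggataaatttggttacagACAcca
SNORA5C: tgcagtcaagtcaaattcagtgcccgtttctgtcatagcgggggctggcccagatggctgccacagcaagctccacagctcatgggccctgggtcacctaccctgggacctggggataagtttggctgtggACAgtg
SNORA5A was 89.6% identical to SNORA5B and 68.3% identical to SNORA5C over the aligned bases.
The SNORD36 RNAs are shown because SNORD36C had the most negative log2 fold change of the RNAs tested. They lie in RPL7A (chr9:136215073-136218281, plus strand), which encodes a protein of the large ribosomal subunit. SNORD36A is at chr9:136217311-136217383, SNORD36B at chr9:136216950-136217023 and SNORD36C at chr9:136217702-136217767. Capitals mark the D box, CTGA.
SNORD36A: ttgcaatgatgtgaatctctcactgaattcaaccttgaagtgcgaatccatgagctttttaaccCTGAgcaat
SNORD36B: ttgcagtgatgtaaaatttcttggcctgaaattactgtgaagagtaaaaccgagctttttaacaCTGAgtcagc
SNORD36C: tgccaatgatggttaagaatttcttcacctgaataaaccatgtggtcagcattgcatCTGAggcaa
SNORD36A was 70.9% identical to SNORD36B and 62.5% identical to SNORD36C.

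The boxes were searched on the RNA's own strand in every member whose locus could be placed on GRCh37 and lay outside chromosome 8. The C box TGATGA was found within the first 20 bases of 72 of 102 SNORD RNAs (70.6%), against 1.96% of regions of the same length directly upstream. The D box CTGA was found within the last 20 bases of 98% of them, against 6.86% upstream. An ACA 3 bases before the end was found in 49 of 66 SNORA RNAs (74.2%), against 0 upstream regions. SNORD36A, SNORD36B and SNORD36C, with a D box each, are among the RNAs without the exact C box letters in that window.

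These RNAs were counted at low levels. Their counts over all samples summed to 24645, or 0.015% of all counts on genes, and 20 RNAs held 50% of them. Of the 246, 176 had a count in every sample, 75 had fewer than 10 counts in all, and 16 had a single count, the lowest sum the rule admits. The other 142 listed rows had no count. They included all 43 rows of the SNORD115 cluster, all 31 of SNORD114 and all 7 of SNORD113, tandem C/D families of imprinted loci. Of the SNORD116 family, 16 of 29 rows had a count, and SNORD116-4 stood out with 39 and 46 counts in vehicle and 51 and 47 in Liq. Counts in Liq samples alone were seen for 17 RNAs, summing to at most 5, and in vehicle samples alone for 7, summing to at most 3.

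Read length sets a limit on what these counts represent. Reads were 100 bases long, and by RefSeq lengths 125 of the 141 SNORD RNAs are shorter than a read, with a median of 78 bases, whereas none of the 83 SNORA RNAs is, with a median of 134. A read aligned over all 100 bases is longer than those 125 RNAs and must reach past their ends into flanking sequence. Whether reads were trimmed is not known here. The counts alone therefore do not separate reads of the finished RNA from reads of an unspliced or retained host intron. Of the members placed in a host on GRCh37, 89 lie wholly within an exon of at least 1 annotated host transcript. The other 97 do not and were taken as intronic, although some may overlap an exon in part.

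Per length, the most reads were counted on SNORD47, a C/D RNA of GAS5, with 140 CPM per kb, whether or not they came from the finished RNA. SNORD36A followed with 82.6 CPM per kb and SNORD76, also from GAS5, with 74.3. SNORD44 and SNORD79, both of GAS5, had 68.5 and 65.2 CPM per kb, and SNORD104 had 62.6. In single libraries SNORD79 had 4.28 and 5.42 CPM in vehicle and 5.54 and 5.90 in Liq, so its level was within the spread of SNORD104, with 4.69 and 4.35 CPM in vehicle and 5.60 and 5.40 in Liq, RNAs of nearly the same length. Among H/ACA RNAs, SNORA40 of TAF1D was highest at 37.7 CPM per kb, followed by SNORA33 at 18.3, SNORA61 at 16.9, SNORA67 at 14.6 and SNORA4 at 14.1. Cajal body RNAs were lower per length, with SCARNA12 at 8.13, SCARNA22 at 6.004, SCARNA27 at 2.23 and SCARNA9 at 1.69 CPM per kb. Not divided by length, SCARNA12 had a mean of 2.20 CPM, above SNORA67 (2.00) and SNORA4 (1.93), while SCARNA22, SCARNA27 and SCARNA9 stayed below both. The order between classes thus depends on the annotated length, which reads may reach past. SCARNA17 had 0.72 CPM per kb by its RefSeq length of 421 bases, and since the length behind its counts is not known and its GENCODE locus spans 144 bases, it is not placed in this order.

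The summed level of each class differed between replicates by about as much as between treatments. SNORD RNAs summed to 91.0 and 111 CPM in vehicle and to 116 and 105 CPM in Liq, a mean of 101 ± 14.2 against 110 ± 7.87 (SD, n = 2). SNORA RNAs summed to 34.0 and 43.9 CPM in vehicle and 41.6 and 38.3 CPM in Liq. SCARNA RNAs summed to 4.74 and 6.04 CPM in vehicle and 6.07 and 5.50 CPM in Liq. In all 3 classes vehicle replicate 1 was lowest, and the Liq samples overlapped the range of the vehicle samples. The log2 ratio of Liq to vehicle was 0.04 for SNORA, 0.13 for SNORD and 0.10 for SCARNA, each smaller than the SD between replicates of 0.16 to 0.19. With 2 samples in each group an exact permutation test cannot give a p under 0.33, so none was run.

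**Figure D1:**
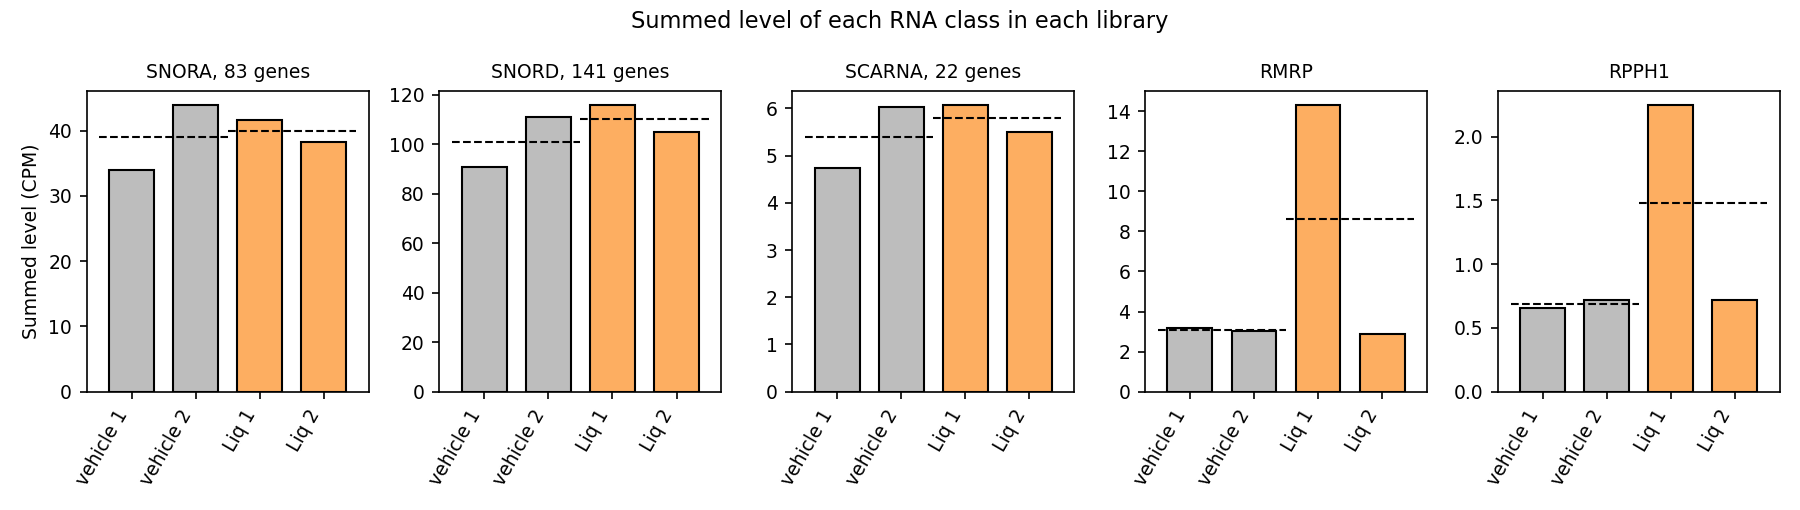
Summed level in CPM of the SNORA, SNORD and SCARNA RNAs and of RMRP and RPPH1 in each library, with bars for single libraries and dashed lines for group means. Vehicle replicate 1 is lowest in the first 3 panels, and Liq replicate 1 stands apart in RMRP (14.3 CPM) and RPPH1 (2.25 CPM).

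Vehicle replicate 1 stood apart from the other libraries in these RNAs. Of the 113 RNAs tested, 57 were lowest in vehicle replicate 1, against 3350 of all 13546 tested genes. Of the 4515 tested genes with the lowest levels, which include all 113 RNAs, 1593 were lowest in it. The median log2 deviation of the 113 RNAs from the mean of the 4 libraries was -0.13 and 0.09 in vehicle replicates 1 and 2. It was 0.08 and -0.02 in Liq replicates 1 and 2. Over all tested genes it lay between -0.0029 and 0.0032. For the 4515 genes it was -0.07 and -0.05 in vehicle replicates 1 and 2 and 0.08 and 0.04 in Liq. The signs in vehicle replicate 1 and Liq replicate 1 were thus shared with those genes, and those in the other libraries were opposite. The share of reads outside annotated genes was 7.75% and 8.36% in vehicle and 9.16% and 8.26% in Liq, the same order of libraries as the SNORD sum, and its part in the sums was not tested. A chi-square test between 2 libraries gave a value per degree of freedom of 1.72 for the vehicle pair and 1.45 for the Liq pair over the tested RNAs, and 1.68 to 1.98 between a vehicle and a Liq library. Over all tested genes the same measure was 6.5 and 11.6 within groups and 60.5 to 74.7 between them. This measure grows with counts, and the median level was 0.658 CPM for these RNAs against 29.7 CPM for all tested genes. Values for these RNAs and for all genes can therefore not be compared in size. Expected counts used the library totals of each set, so a shift common to a whole set does not enter.

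RMRP and RPPH1, non-coding RNAs outside the set, showed 1 library apart. RMRP, the RNA of the mitochondrial RNA processing ribonuclease, had 131 and 113 counts in vehicle and 509 and 145 in Liq. RPPH1, the RNA of ribonuclease P, had 27 and 27 in vehicle and 80 and 36 in Liq. Both were high in Liq replicate 1, while Liq replicate 2 had 2.89 and 0.717 CPM against 3.02 to 3.19 and 0.657 to 0.721 in vehicle. Both were called over all samples, with log2 fold changes of 1.41 ± 0.37 (SE; adjusted p = 0.0062) and 1.02 ± 0.37 (adjusted p = 0.045), and without Liq replicate 1 they gave -0.10 (adjusted p = 0.75) and 0.06 (adjusted p = 0.93). RPPH1 also lost its call without vehicle replicate 1 (adjusted p = 0.082). TERC, the telomerase RNA, had 3 and 2 counts in vehicle and 7 and 6 in Liq. Rows named MIR that are not host transcripts summed to 42.6 and 54.1 CPM in vehicle and 58.4 and 44.03 CPM in Liq, again with overlapping groups, whereas host transcripts such as MIR100HG summed to 44.3 and 50.1 CPM against 62.2 and 64.2. The 4 RNU rows summed to 1.80 and 2.00 CPM against 2.42 and 1.99, and the 2 vault and Y RNA rows to 8 and 12 counts against 3 and 8. RNU86, which RefSeq lists as an older name of a SNORD gene and the rule does not cover, had 66 and 71 counts in vehicle and 79 and 93 in Liq.

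To ask which of these RNAs Liq changed, all 13546 genes that passed the filter on low counts were fitted together, and a gene was called at an adjusted p under 0.05 and a change of at least 1.5-fold. The filter kept 113 of the 246 RNAs, namely 37 SNORA, 69 SNORD and 7 SCARNA, and these held 93.6% of the RNAs' counts. The other 133 had too few counts to test. Of the 113, 2 were called (1.77%), both higher in Liq, against 6.45% of all tested genes, 4.29% higher and 2.16% lower. DESeq2 called none of the 113, against 570 of all 13546 tested genes. All 113 lie in the lowest of 3 equal bins of tested genes by level, termed low-level genes here, of which 14.8% were called. The median level was 2.69 CPM for low-level genes against 0.658 CPM for the 113, so the bin is not matched to them in depth. The 2 are SCARNA17 and SNORA5A, and neither call held in every fit. Both had fewer than 10 counts in each vehicle sample, so they passed the filter through the Liq samples, where they are high. With levels as low in Liq they would not have been tested, so their direction is not independent of the filter.

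SCARNA17 had 4 and 4 counts in vehicle and 21 and 21 in Liq, or 0.097 and 0.107 against 0.591 and 0.418 CPM. Both Liq samples lay above both vehicle samples. The log2 fold change was 2.24 ± 0.53 (SE), with a 95% interval of 1.16 to 3.32 and an adjusted p of 0.0027. In fits without 1 of the samples it ranged from 2.01 to 2.50 with adjusted p-values up to 0.048, and the DESeq2 Wald test gave 2.30 with an adjusted p of 0.051. The nearest gene on the opposite strand, ACAA2, had 292 and 225 counts in vehicle and 255 and 380 in Liq, with a log2 fold change of 0.17 (adjusted p = 0.36).

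SNORA5A, an H/ACA RNA, had 8 and 6 counts in vehicle and 17 and 23 in Liq, without overlap between the groups. The log2 fold change was 1.37 ± 0.46, with a 95% interval of 0.43 to 2.32 and an adjusted p of 0.030. The call was lost when any 1 sample was left out (adjusted p = 0.079 to 0.23), with DESeq2 (adjusted p = 0.23) and with loess offsets (adjusted p = 0.087). Its host TBRG4 had 5258 and 4389 counts in vehicle and 3954 and 5204 in Liq, a log2 fold change of -0.19 ± 0.08 (adjusted p = 0.070). Of the related RNAs in TBRG4, SNORA5C had a log2 fold change of -0.33, and SNORA5B, with 19 counts in all, was not tested.

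The rest of the set showed few differences beyond the spread between replicates. The median log2 fold change over the 113 was 0.07, against 0.01 for all tested genes and 0.15 for low-level genes. The log2 fold changes were positive for 65 RNAs and negative for 48 (57.5% positive), but with loess offsets along the level the split was 38 positive and 75 negative (33.6%), so no direction is given for the set. An unadjusted p under 0.05 was reached by 12 RNAs (10.6%), 8 higher and 4 lower, against 36.1% of all tested genes and 35.7% of low-level genes. Since low-level genes had more counts than these RNAs, the shares do not compare them at equal depth. Together with a 1.5-fold change 7 RNAs reached it, against 7.85% of all tested genes. The Liq samples lay above both vehicle samples for 23 RNAs (20.4%), against 31.5% of all tested genes and 43.1% of low-level genes, and below both for 10 (8.85%), against 30.2% and 17.9%.

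Depth limited these tests. The median SE of a log2 fold change was 0.33 for these RNAs, from 0.11 for SNORD47 to 0.60 for SNORD55. It was 0.18 for low-level genes and 0.09 for all tested genes. For 18 of the 113 (15.9%) the 95% interval lay wholly within 1.5-fold in either direction, against 36.5% of low-level genes and 74.4% of all tested genes. For the other 95 a change of 1.5-fold lay inside the interval or beyond it. SNORD47, SNORD79 and SNORA40 are among the 18. For most of these RNAs a change of 1.5-fold could thus not be excluded at this depth, and a p that missed the threshold does not show that they were alike in both groups.

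**Figure D2:**
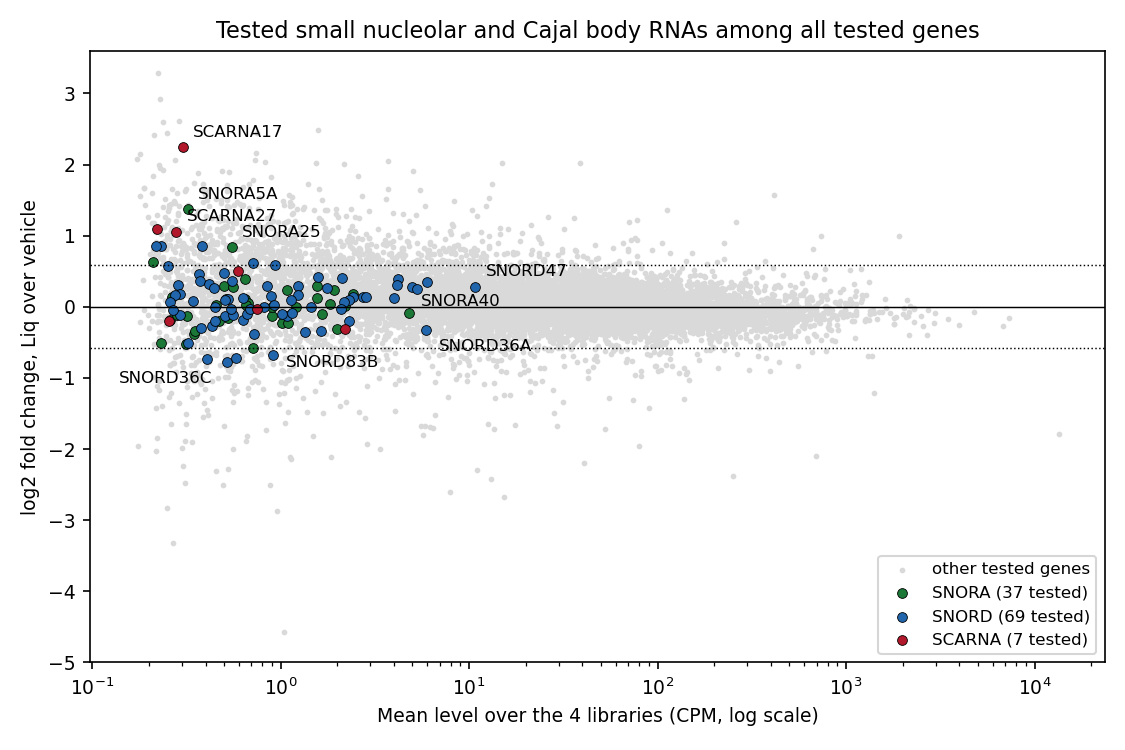
Log2 fold change, Liq over vehicle, against the mean level in CPM on a log axis for all 13546 tested genes (grey) and the 113 tested RNAs (coloured by class), with dotted lines at 1.5-fold. The coloured points lie at the low end of the level axis, and SCARNA17 (2.24) and SNORA5A (1.37) are the 2 called.

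The RNAs were next grouped by host gene, since RNAs cut from 1 transcript share its transcription. A host with a row in the tables was found for 215 of the 246 RNAs, in 123 hosts, while 31 RNAs had none. GAS5, a non-coding gene at chr1:173827697-173838020 whose spliced RNA is a known target of nonsense-mediated decay, hosts 10 of the RNAs, 9 of them tested. GAS5 itself had 6954 and 6656 counts in vehicle and 7176 and 10291 in Liq, a log2 fold change of 0.23 ± 0.07 (adjusted p = 0.017) that is under 1.5-fold. Of its 9 C/D RNAs 8 had a positive log2 fold change, with a median of 0.28, and with loess offsets 6 did, with a median of 0.21.

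SNORD47 was the most abundant of them, with 377 and 388 counts in vehicle and 407 and 613 in Liq, or 9.17 and 10.4 against 11.4 and 12.2 CPM. Both Liq values exceeded both vehicle values, and the log2 fold change was 0.28 ± 0.11 (adjusted p = 0.070). SNORD76 had 5.23 and 5.32 CPM in vehicle and 7.79 and 5.74 in Liq, a log2 fold change of 0.34 ± 0.15 (adjusted p = 0.086). SNORD44 had 132 and 151 counts against 177 and 226, with a log2 fold change of 0.39 (adjusted p = 0.072), and SNORD77 had 35 and 24 against 43 and 53, with 0.58 (adjusted p = 0.13). SNORD79 gave 0.24 ± 0.14 (adjusted p = 0.23). At the other end, SNORD78 had 20 and 34 counts in vehicle and 23 and 35 in Liq, with a log2 fold change of -0.03. None of the 9 passed an adjusted p of 0.05 in the fit without a block, whereas 1 did without Liq replicate 1 and 2 did without Liq replicate 2.

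SNHG1, a non-coding host on chromosome 11, carries 8 C/D RNAs, all tested. The host had 6544 and 6600 counts in vehicle and 6812 and 9230 in Liq, a log2 fold change of 0.16 ± 0.07 (adjusted p = 0.11). All 8 RNAs had positive log2 fold changes, from 0.06 for SNORD26 to 0.42 for SNORD28, but with loess offsets, and also without vehicle replicate 1, 4 of the 8 were negative. Summed over the 8 RNAs, the level was 16.0 and 23.0 CPM in vehicle and 24.4 and 21.2 CPM in Liq, so the groups overlapped. Their adjusted p-values lay between 0.15 and 0.87. C6orf48, a non-coding host of 2 tested RNAs, had a log2 fold change of 0.25 ± 0.07 (adjusted p = 0.011), and its RNAs a median of 0.23.

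TAF1D, which encodes a subunit of the RNA polymerase I initiation factor SL1, hosts 7 tested RNAs. It differed little itself, with 2088 and 2140 counts in vehicle and 1953 and 2807 in Liq (log2 fold change 0.04 ± 0.08, adjusted p = 0.78). Its RNAs ranged from -0.53 for SNORA1, with 9 and 19 counts against 14 and 7, to 0.84 for SNORA25, with 13 and 18 against 23 and 38. SNORA40, the most abundant H/ACA RNA, had 4.21 and 5.69 CPM in vehicle and 4.05 and 5.18 in Liq, with a log2 fold change of -0.08 ± 0.16 and a 95% interval of -0.41 to 0.25. The values of SNORA40 overlapped fully between the groups. SNORA25 reached an unadjusted p of 0.026 and an adjusted p of 0.088.

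RPL7A carries the SNORD36 RNAs shown above and SNORD24. The host had 25878 and 22195 counts in vehicle and 20140 and 26605 in Liq, a log2 fold change of -0.16 ± 0.06 (adjusted p = 0.075). SNORD36A, which guides methylation of ribosomal RNA, had 6.10 and 7.11 CPM in vehicle and 5.43 and 5.14 in Liq, a log2 fold change of -0.32 ± 0.13 (adjusted p = 0.083). SNORD36C had 30 and 22 counts against 13 and 20, a log2 fold change of -0.78 ± 0.36 (adjusted p = 0.11, and 0.043 with loess offsets). In both the Liq samples lay below the vehicle samples. SNORD36B, with 26 and 38 counts against 21 and 33, overlapped between groups at -0.38 ± 0.32, and SNORD24, with 10 and 10 against 9 and 14, had 0.07.

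**Figure D3:**
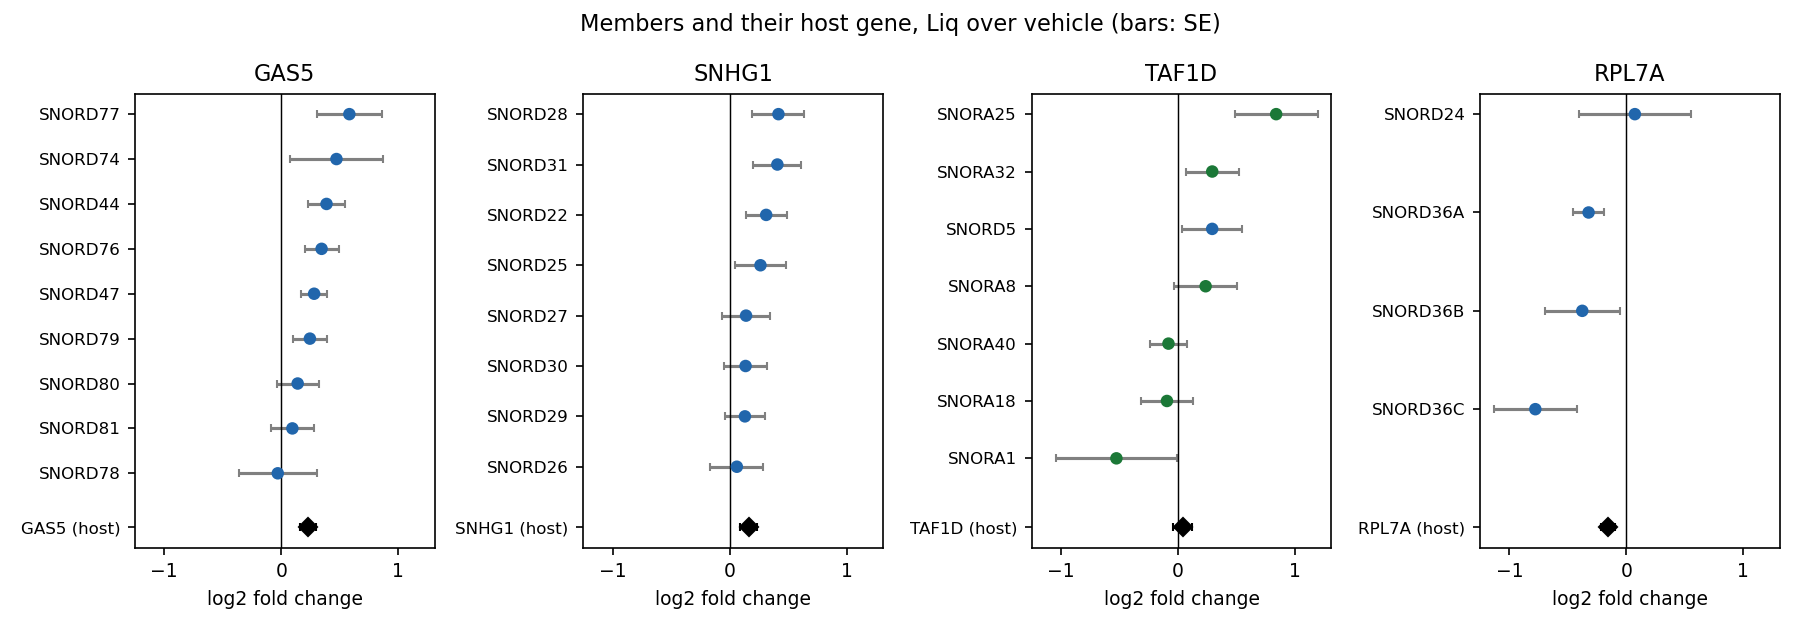
Log2 fold changes, Liq over vehicle, of the tested RNAs of 4 host genes (coloured points) and of the host itself (black diamonds), with bars for the SE. Those of SNHG1 lie between 0.06 and 0.42, those of GAS5 between -0.03 and 0.58, those of TAF1D on both sides of 0, and those of RPL7A between -0.78 and 0.07.

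The other abundant RNAs gave no call. SNORA33, in the ribosomal protein gene RPS12, had 1.85 and 2.72 CPM in vehicle and 2.73 and 2.43 in Liq, and SNORA61, in the non-coding SNHG12, had 2.04 and 2.35 against 2.08 and 2.33. SNORA4, in the helicase gene EIF4A2, had 1.24 and 2.32 against 1.97 and 2.172. For these 3 the groups overlapped, and the log2 fold changes were 0.17, 0.02 and 0.24. The hosts RPS12, SNHG12 and EIF4A2 had log2 fold changes of -0.01, 0.01 and 0.09. SNORA67 had 2.29 and 2.14 against 1.77 and 1.79 CPM, a log2 fold change of -0.31 ± 0.20 (adjusted p = 0.26), and its host EIF4A1 was listed at 0 counts in every sample. A row named SENP3-EIF4A1 had 3 and 3 counts in vehicle and 3 and 1 in Liq. How reads of this host were assigned was not tested, so the 0 is not read as absence of the host.

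SNORD104 had a log2 fold change of 0.28 ± 0.14 (adjusted p = 0.15). Among the Cajal body RNAs, SCARNA12, in PHB2, had 2.41 and 2.46 CPM in vehicle and 1.88 and 2.03 in Liq. The Liq samples lay below the vehicle samples, with a log2 fold change of -0.31 ± 0.19 (adjusted p = 0.25), and PHB2, which encodes prohibitin 2, had -0.10 ± 0.07. SCARNA22, in WHSC1, had 25 and 35 counts against 20 and 45, with -0.03 ± 0.32, and SCARNA9, in KIAA1731, had 14 and 24 against 28 and 31, with 0.51 ± 0.36. WHSC1 had a log2 fold change of 0.16 (adjusted p = 0.067) and KIAA1731 of -0.10 (adjusted p = 0.46).

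Members and hosts were then set side by side for the 103 pairs, in 54 hosts, in which both were tested. The difference between the log2 fold change of the RNA and that of its host had a median of 0.02, with 56 RNAs above and 47 below their host. The median log2 ratio of RNA to host counts was -8.43 and -7.97 in vehicle and -7.85 and -8.06 in Liq, so the vehicle replicates differed more from each other than the group medians did. Across the pairs Pearson's r of the 2 log2 fold changes was 0.19 and Spearman's rho 0.27. Over the 33 pairs from 11 non-coding hosts r was 0.65 and rho 0.69, and over the 70 pairs from other hosts 0.05 and 0.04. These are descriptions across RNAs that share hosts and libraries, since 17 of the non-coding pairs came from GAS5 and SNHG1.

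The RNAs farthest above their host were SNORA5A (1.57 above TBRG4 on the log2 scale), SCARNA27 (1.16 above EEF1E1), SNORD63 (1.06 above HSPA9), SNORD16 (1.00 above RPL4) and SCARNA8 (0.96 above HAUS6). All had low counts. SCARNA27 had 5 and 9 counts in vehicle and 15 and 17 in Liq, SNORD63 had 4 and 8 against 11 and 13, SNORD16 had 6 and 7 against 9 and 17, and SCARNA8 had 5 and 6 against 10 and 16. The Liq samples lay above the vehicle samples in CPM for each, as for 31.5% of all tested genes and 43.1% of low-level genes. This pattern is favoured by the choice of these RNAs and also by the filter. Each had fewer than 10 counts in both vehicle samples and passed the filter through the Liq samples. The adjusted p-values of SCARNA27, SNORD63, SNORD16 and SCARNA8 were 0.13 to 0.27. EEF1E1, the host of SCARNA27, encodes a component of the tRNA synthetase complex and had a log2 fold change of -0.10 ± 0.09 (adjusted p = 0.42), and HSPA9, the host of SNORD63, encodes a mitochondrial chaperone and had -0.20 ± 0.06 (adjusted p = 0.022).

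The RNAs farthest below their host were SNORD73A (-0.71 against RPS3A), SNORD83B (-0.66 against RPL3), SNORD36C (-0.62 against RPL7A), SNORD96A (-0.60 against GNB2L1) and SNORA1 (-0.57 against TAF1D). SNORD73A had 25 and 31 counts in vehicle and 17 and 20 in Liq, with a log2 fold change of -0.72 ± 0.35 (adjusted p = 0.13). SNORD83B had 43 and 44 against 31 and 28, with -0.67 ± 0.29 (adjusted p = 0.094). SNORD96A had 23 and 17 against 13 and 13, with -0.74 ± 0.40 (adjusted p = 0.19). The 4 C/D RNAs lie in genes for ribosomal proteins or, for GNB2L1, for a ribosome-bound scaffold, and for these 4 the Liq samples lay below the vehicle samples, as for 30.2% of all tested genes and 17.9% of low-level genes, a pattern that their choice by distance from the host favours. With loess offsets SNORD73A, SNORD83B and SNORD36C passed both thresholds, with adjusted p-values of 0.047, 0.027 and 0.043.

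**Figure D4:**
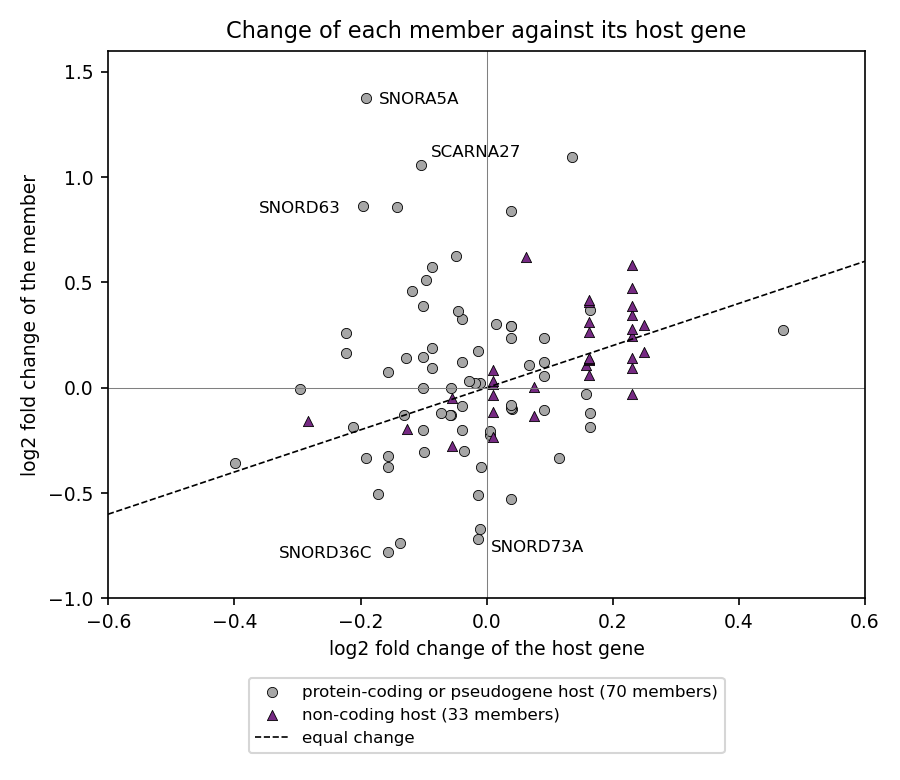
Log2 fold change of each RNA against that of its host gene, Liq over vehicle, for 103 pairs, with triangles for the 33 RNAs of non-coding hosts and circles for the other 70, and a dashed line at equal change. SNORA5A lies highest at 1.37 over a host change of -0.19, and SNORD36C lowest at -0.78.

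Host genes were read from the same fit. Of 120 tested hosts 2 (1.67%) were called, against 6.45% of all tested genes, and neither carries a tested RNA. The share called depends on level, since 666 of the 874 genes called were low-level genes, of which 14.8% were called. The hosts were not compared with genes of their own level, so their low share is not read as a trait of hosts. ODC1, the rate-limiting enzyme of polyamine synthesis and host of SNORA80B, fell from 33521 and 29599 counts in vehicle to 18226 and 26268 in Liq, by 0.63 (log2) with an SE of 0.06 and an adjusted p of 1.6e-08. SNORA80B had 1 and 1 counts against 3 and 0. RPL32P3, a transcribed pseudogene that hosts SNORA7B, rose by 0.64 ± 0.14 (adjusted p = 0.0021), from 194 and 225 counts to 336 and 367, and its reads may be shared with close copies. Neither was called with loess offsets, and RPL32P3 also lost its call without vehicle replicate 1 or Liq replicate 1. SNORA7B had 4 and 1 counts against 5 and 4. With no fold threshold 24 hosts passed an adjusted p under 0.05 (20%, against 24.0% of all tested genes), 3 higher (2.5%, against 12.6%) and 21 lower (17.5%, against 11.3%). The log2 fold change was negative for 88 of the 120, and for 68 with loess offsets.

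The proteins that bind, assemble, process and transport these RNAs were examined as lists. In the lists of 87 tested genes, no gene was called by edgeR or by DESeq2, and none had an unadjusted p under 0.05 together with a 1.5-fold change, although 28 had an unadjusted p under 0.05. With no fold threshold 20 of the 87 passed an adjusted p under 0.05 (23%, against 24.0% of all tested genes), 3 higher (3.45%, against 12.6%) and 17 lower (19.5%, against 11.3%). The 8 core proteins all had negative log2 fold changes, in every fit run, and in CPM the Liq samples lay below the vehicle samples for each, as for 30.2% of all tested genes. An adjusted p under 0.05 was reached by 6 of the 8. That number was 2 with loess offsets and 4 with upper-quartile scaling, and between 0 and 5 when 1 sample was left out, 0 without vehicle replicate 1.

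Of the C/D core, the methyltransferase FBL had 8786 and 7706 counts in vehicle and 6840 and 8602 in Liq, with a log2 fold change of -0.21 ± 0.07 (adjusted p = 0.039). The scaffold protein NOP58 had -0.22 ± 0.07 (adjusted p = 0.025), the RNA-binding NHP2L1, also called SNU13, -0.25 ± 0.07 (adjusted p = 0.016), and NOP56 -0.10 ± 0.06 (adjusted p = 0.26). Of the H/ACA core, the pseudouridine synthase DKC1 had 10717 and 9655 counts against 7929 and 11068, with -0.23 ± 0.07 (adjusted p = 0.015). NOP10 had -0.33 ± 0.08 (adjusted p = 0.0048), GAR1 -0.29 ± 0.09 (adjusted p = 0.019) and NHP2 -0.10 ± 0.08 (adjusted p = 0.38). COIL, the scaffold of Cajal bodies, had -0.11 ± 0.09 (adjusted p = 0.39), and WRAP53, which brings RNAs to them, had 0.01 ± 0.10 (adjusted p = 0.94).

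The other lists were mixed. None of the 10 tested assembly factors had an adjusted p under 0.05 (median log2 fold change -0.07, against 0.01 for all tested genes). Of 24 factors of processing and decay 6 were lower and none higher at an adjusted p under 0.05 (median -0.16), against 11.3% of all tested genes lower. That number of 6 was 0 without vehicle replicate 1, 2 without vehicle replicate 2, 11 without Liq replicate 2 and 4 with loess offsets or upper-quartile scaling. Among the 6 were EXOSC10, a nuclear exosome nuclease, at -0.31 ± 0.07 (adjusted p = 0.0036), and the deadenylases PARN at -0.21 ± 0.08 (adjusted p = 0.042) and TOE1 at -0.35 ± 0.09 (adjusted p = 0.0052). Of 18 Cajal body and transport factors 2 were lower and 1 higher (median -0.09), and of 10 factors of nonsense-mediated decay 2 were lower and 1 higher (median 0.01). In the list of 17 tested non-coding host genes, which does not hold C6orf48, 1 was higher, GAS5, and 1 lower, C7orf40, also called SNHG15, at -0.28 ± 0.09 (adjusted p = 0.023), with a median of 0.00.

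**Figure D5:**
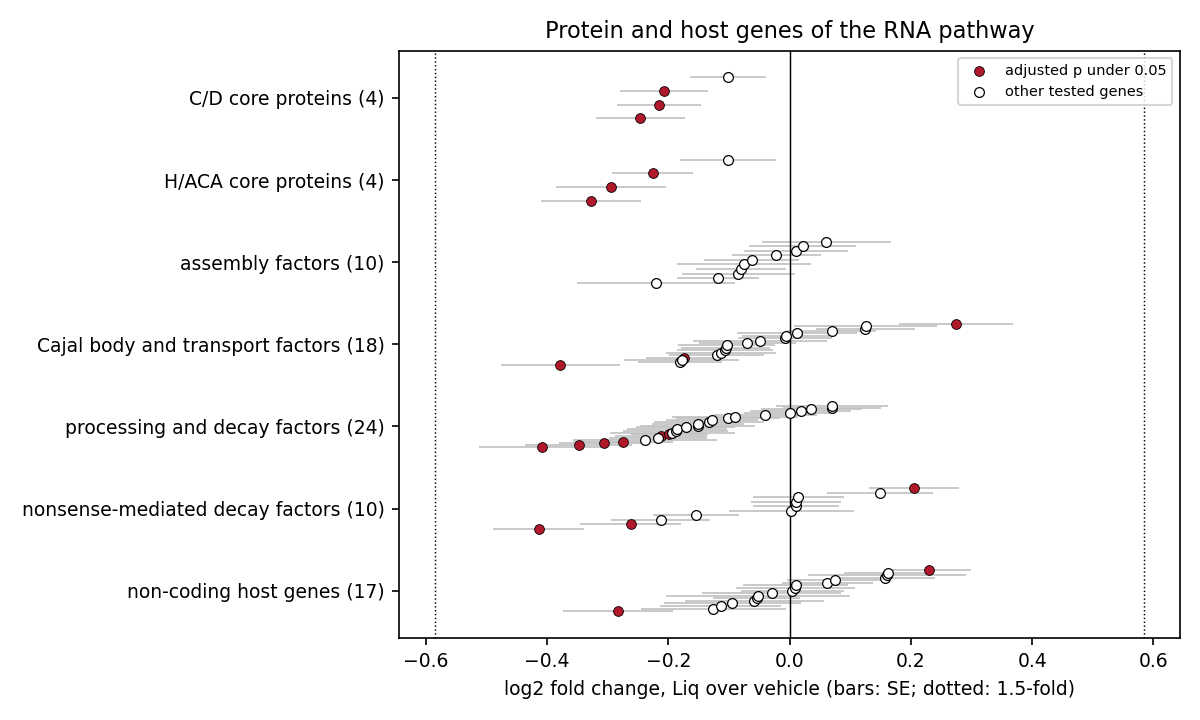
Log2 fold changes, Liq over vehicle, of the tested genes of 7 lists, 1 point a gene with bars for the SE, filled where the adjusted p is under 0.05, and dotted lines at 1.5-fold. The 8 core proteins lie between -0.33 and -0.10, and no point reaches a dotted line.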

How the data were processed

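Total RNA of ES2 cells was isolated in 2 vehicle and 2 Liq samples. Per the paper, libraries were made by Illumina TruSeq RNA Sample preparation. Per the labels and the paper's methods, the authors aligned the 100-base single-end reads to hg19 with TopHat2 2.0.8b, counted reads with HTSeq and deposited 1 table of raw gene counts a sample. The strand setting is not given in the sources used here. HTSeq drops reads that align to several places (35.6% to 36.2% here), so RNAs with close copies may be undercounted. The RNAs, hosts and lists were chosen with earlier results of these data known.

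The counts were fitted by edgeR 4.0.16 (R 4.3.3) with filterByExpr (minimum count 10, minimum total 15), TMM, glmQLFit and glmQLFTest without a block, with Benjamini-Hochberg adjustment over all 13546 genes. The SE is the log2 fold change divided by the square root of F. Replicates differed beyond sampling noise. The host was the shortest gene whose RefSeq span holds the RNA, with genes that have a row in the tables preferred and those on the opposite strand left out where both could be placed on GRCh37. RefSeq, on another build, was used for names, lengths and neighbours only. Ratios used a pseudocount of 0.5 counts. Named RNAs were those called, the 5 of each class with the highest mean CPM, those with at least 10 counts in 1 group and 0 in the other (none) and the 5 farthest from their host in each direction, with their hosts and the core proteins; others were named after their values were seen. The fit was tested on simulated data, with changes set only in genes of higher counts than SCARNA17 and SNORA5A. The test therefore does not cover RNAs at their depth. Alternatives were RLE and upper-quartile scaling, loess offsets (span 0.3), other filters, DESeq2 1.42.0, a replicate block, other thresholds and leaving out each sample.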

Additional observations from a re-analysis of the deposited data

How the results depend on the processing

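The number of RNAs called was 2, and 0 with the DESeq2 Wald test, 0 among RNAs with at least 10 counts in every sample, 4 with loess offsets (SCARNA17 higher, SNORD36C, SNORD73A and SNORD83B lower), 7 at an unadjusted p with 1.5-fold, and 1 to 3 when 1 sample was left out, with SCARNA17 alone called without vehicle replicate 1. Calls among hosts numbered 2, 0 with loess offsets, 24 with no fold threshold, and 1 without vehicle replicate 1 or Liq replicate 1. Calls in the lists of protein and non-coding host genes numbered 0, and 20 with no fold threshold. The log2 ratio of summed CPM was 0.035 for SNORA and ranged from -0.14 to 0.23 when 1 sample was left out, the highest without vehicle replicate 2. For SNORD it ranged from -0.0086 to 0.28 and for SCARNA from -0.061 to 0.29. The SCARNA ratio of 0.10 became 0.37 without SCARNA12. The median difference between RNA and host ranged from -0.12 to 0.22. Of 487 values of the 45 named genes under 11 other fits, 476 kept their side of the threshold, and 21, in 10 genes that were not called, had another sign.

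The labels give both groups the same replicate numbers but no shared origin. With the replicate number as a block 2 RNAs, 2 hosts and 0 list genes were called. At an adjusted p under 0.05 with no fold threshold, the block moved the RNAs of GAS5 from 0 to 1 and the processing and decay factors from 6 to 11. The deviations of the samples numbered 1 correlated at 0.048. With 2 samples in a group and few counts per RNA, changes under about 1.5-fold were out of reach for most RNAs. Larger changes could be missed too. In the main edgeR fit SNORA25 at 1.79-fold had an adjusted p of 0.088, and SCARNA8 at 2.14-fold had 0.15. Intervals cover the spread between these samples only.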
